A study of Mus musculus with 5 samples.

Results

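PEP1_S100a11.Tagln2 and PEP1_Slc7a3.Sstr2 are the annotation labels of neighbouring groups of peptidergic neurons in the mouse dorsal root ganglion, the sensory ganglion beside the spinal cord. Their members were chosen by the study's deposited cell annotation: 181 cells carried the first label and 342 the second, together 523 of 3352 annotated cells of 14 types. Lumbar ganglia came from 5 adult wild-type C57BL/6 mice of both sexes, and no treatment is stated for them. The ganglia were dissociated with collagenase and trypsin before droplet capture and sequencing of transcript 3' ends. Each library was taken as 1 mouse, numbered in the order of the library IDs because these could not be tied to the sample labels. Both types were present in every mouse, so every comparison set both types of the same 5 animals against each other. They are called the S100a11 type and the Slc7a3 type here. The study clustered cells on the same counts from which both types are described, so their gene differences are a description of types defined from these genes and no independent test.

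Peptidergic nociceptors are unmyelinated or thinly myelinated sensory neurons that detect noxious heat, chemicals and pressure. They store neuropeptides such as calcitonin gene-related peptide and substance P in dense-core vesicles and release them both in the spinal dorsal horn and in the skin or viscera, where the peptides dilate vessels and recruit immune cells. Most carry the capsaicin receptor Trpv1.

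The S100a11 type held 10, 31, 19, 36 and 85 cells in mice 1 to 5, and the Slc7a3 type held 16, 65, 33, 85 and 143. As a share of all cells of a mouse, the S100a11 type took 6.10, 5.75, 4.01, 4.47 and 6.20% and the Slc7a3 type 9.76, 12.1, 6.96, 10.6 and 10.4%. The S100a11 type was the smaller in 5 of 5 mice, with a difference of -4.65 ± 1.49 percentage points (mean of S100a11 minus Slc7a3 type ± SD, n = 5, exact two-sided sign-flip test, p = 0.063, adjusted p = 0.25 over 4 measures). A p of 0.063 is the smallest that 5 mice can give in this test. Dissociation and capture set which cells were counted, and their part in these shares was not tested. UMIs, the unique molecular identifiers that count captured transcripts, had medians per cell of 37123, 62940, 50827, 57012.5 and 42820 in the S100a11 type and 59459, 47206, 43425, 40773 and 32384 in the Slc7a3 type. The S100a11 type was above in 4 of 5 mice and below in mouse 1, where it held 10 cells, with a mean log2 ratio of 0.17 ± 0.48 (SD, n = 5, exact p = 0.5, adjusted p = 0.5). Without mouse 1 the log2 ratio was 0.38. With means in place of medians it was 0.40, and the S100a11 type was above in 5 of 5 mice, mouse 1 included at 0.12 (exact p = 0.063). Thinned to 20000 UMIs, which left out 11 and 19 shallower cells, cells held a median of 4583 ± 47.7 genes in the S100a11 type and 4595 ± 41.1 in the Slc7a3 type (SD, n = 5, exact p = 0.4375, adjusted p = 0.5), lower in the S100a11 type in 3 of 5 mice. Thinned to 10000 UMIs, they held 3205 ± 17.8 and 3244 ± 23.6 genes, lower in the S100a11 type in 5 of 5 mice (exact p = 0.063). Unthinned medians were 6583 and 6318 genes. Mitochondrial transcripts made up 5.01 ± 1.14% and 4.43 ± 0.700% of UMIs (SD, n = 5, exact p = 0.5, adjusted p = 0.5), higher in the S100a11 type in 3 of 5 mice, and the difference of 0.577 percentage points was 0.0716 without mouse 3.

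Summed per mouse, the cells of the S100a11 type gave 602660, 2155804, 950794, 2161618 and 3796817 UMIs, and those of the Slc7a3 type 885440, 3074587, 1341468, 3485811 and 4619805. Of 3345 barcode sequences, 7 occurred in more than 1 library, which touched 1 of the 523 cells. No doublet caller was run, and the study's methods state none, so cells that hold RNA of more than 1 cell may remain.

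Of 9322 genes with enough counts to be fitted, 1030 (11.05%) were higher in the S100a11 type and 1039 (11.1%) were higher in the Slc7a3 type at an adjusted p under 0.01 (edgeR quasi-likelihood fit of the summed UMIs with the mouse as a block, Benjamini-Hochberg adjustment). These genes are termed called, and nothing is read from their share because the types were chosen by the same counts. Counts of called members in the gene lists below are to be set beside these shares of all fitted genes, and no list was tested against them. Without the block 598 and 618 genes were called, and DESeq2 called 679 and 666. Other alternatives were limma on means of cells, with 690 and 801 calls, and equal cell numbers in both types, with 777 and 785. A stricter rule that also asked for at least 2-fold and a UMI in at least 25% of cells of the higher type left 352 (3.78%) and 362 (3.88%) genes. All 5 sums of the S100a11 type lay above all 5 of the Slc7a3 type for 596 genes (6.39%), and all 5 lay below for 697 (7.48%). The median called gene differed 1.74-fold, 115 and 138 called genes differed at least 4-fold, and the median log2 fold change of all fitted genes was -0.01. All fold changes are of the S100a11 type over the Slc7a3 type, so negative log2 values mark genes higher in the Slc7a3 type. Levels are CPM, the UMIs of a gene scaled to a total of 1e6 in a summed library, and errors are SD over 5 mice for levels and SE of the fit for log2 fold changes.

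**Figure D1:**
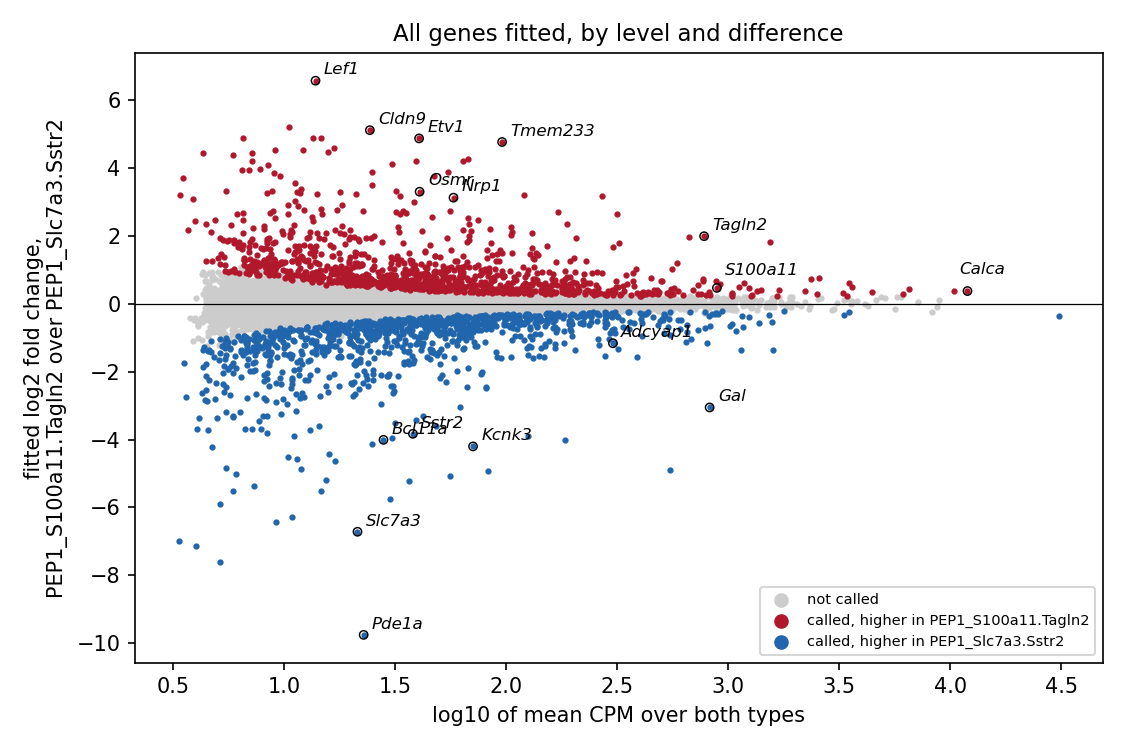
Each point is 1 of 9322 fitted genes, with the log10 of its mean CPM over both types on the horizontal axis and its fitted log2 fold change on the vertical axis. Red and blue mark the 1030 and 1039 called genes, and the fitted value of a gene with at most 3 UMIs in 1 type, such as Pde1a, Slc7a3 and Lef1, depends on the prior count of the fit. Tagln2 stood at 1.99 and S100a11, at a like level, at 0.46.

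The 4 genes in the labels did not separate the types equally. S100a11 (chromosome 3, chr3:93520496-93526288 on mm10), a small calcium-binding protein that partners annexins, was counted at 1283, 934, 969, 1132 and 819 CPM in the S100a11 type of mice 1 to 5, against 945, 681, 674, 784 and 677 CPM in the Slc7a3 type. It was higher in the S100a11 type within 5 of 5 mice. The ranges overlapped and the difference was small (log2 0.46 ± 0.07). Without the mouse as a block, the fit that called 598 and 618 genes, S100a11 was not called (log2 0.47). Tagln2 (chr1:172500246-172507375), transgelin-2, an actin-binding protein, was counted at 1233, 1338, 1135, 1209 and 1261 CPM in the S100a11 type of mice 1 to 5, against 412, 341, 295, 315 and 254 CPM in the Slc7a3 type. Every S100a11 type value lay above every Slc7a3 type value, with a log2 fold change of 1.99 ± 0.08. Slc7a3 (chrX:101079146-101090452), a cationic amino acid transporter, was counted at 0, 0.464, 0, 0 and 0.527 CPM in the S100a11 type of mice 1 to 5, against 48.6, 23.1, 67.8, 30.4 and 43.3 CPM in the Slc7a3 type. These were 3 UMIs against 511, a ratio of 123 with an exact 95% counting interval of 41.8 to 598. Sstr2 (chr11:113619327-113626028), an inhibitory somatostatin receptor, was counted at 4.98, 3.25, 6.31, 5.55 and 4.74 CPM in the S100a11 type of mice 1 to 5, against 72.3, 61.8, 75.3, 80.6 and 65.6 CPM in the Slc7a3 type. The types did not overlap for either gene, and Sstr2 had a log2 fold change of -3.83 ± 0.16.

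**Figure D2:**
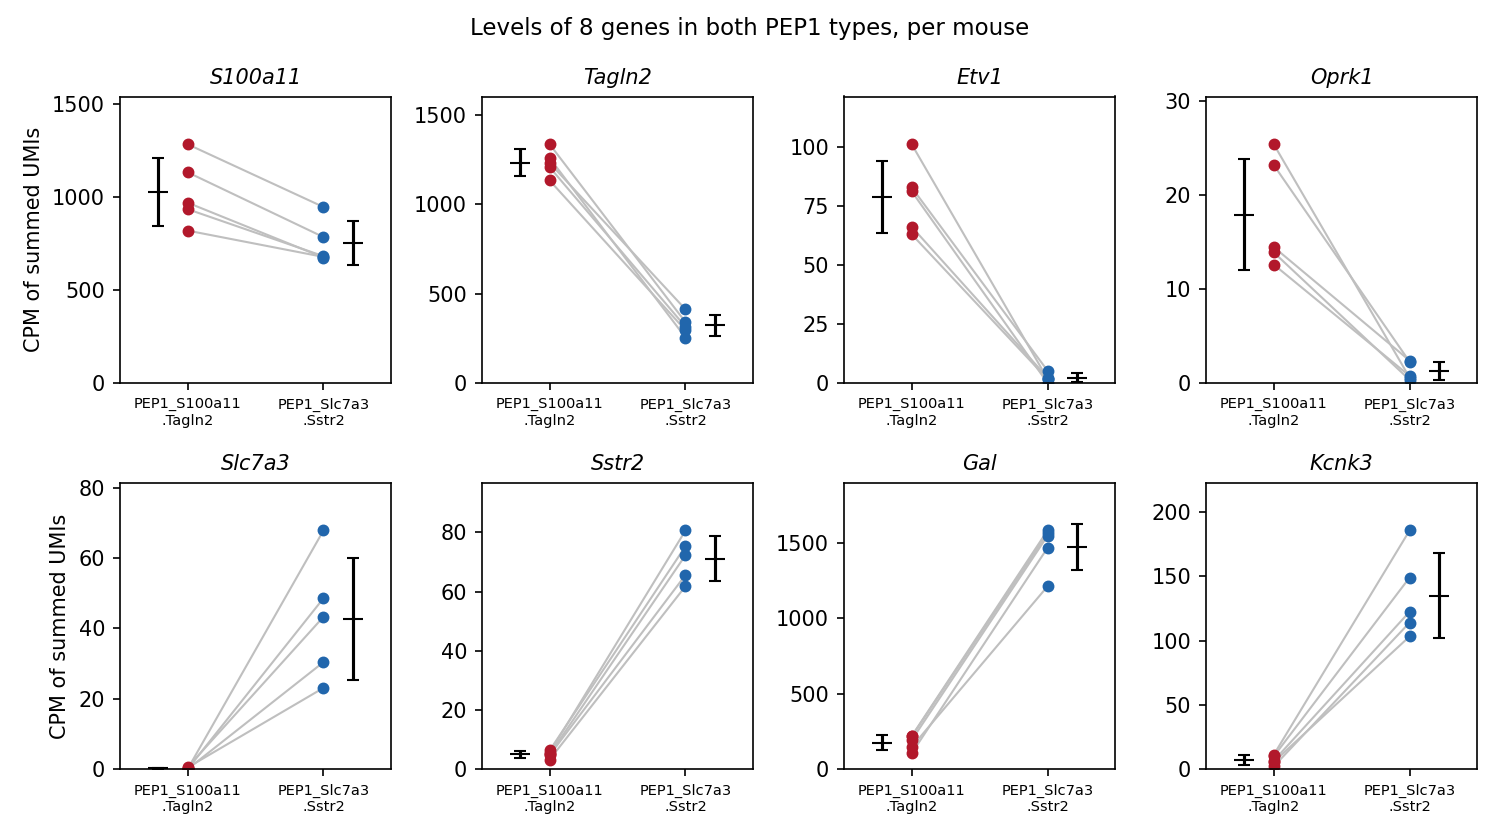
CPM of 8 genes in both types, with 1 point per mouse and type, grey lines joining the types of 1 mouse and black marks giving the mean ± SD (n = 5). S100a11 overlapped between the types, and the other 7 genes did not.

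In single cells S100a11 again differed least, but the other label genes did not keep the order of the sums. For S100a11, 100% and 99.7% of cells of the respective types held a UMI, against 98.8% of satellite glia, at median depths of 49113 and 38283.5 UMIs in the types and 17729 in glia. Of glia, 88.0% also held a UMI of Calca and 80.3% of Prph, both neuronal genes, and the part of neuronal RNA in glia droplets was not tested. For Tagln2, 99.4% and 45.6% of cells of the respective types held a UMI, against 94.4% of satellite glia. For Slc7a3, 1.66% and 42.1% of cells of the respective types held a UMI, against 0.803% of satellite glia, and for Sstr2 17.1%, 77.5% and 0.803%. A cell of the S100a11 type had the higher S100a11 CPM in a share of 0.62 of cell pairs from 1 mouse (range 0.571 to 0.703 over mice, ties counted in part), against 0.89 for Tagln2. In such pairs a cell of the Slc7a3 type had the higher Sstr2 CPM in a share of 0.85 and the higher Slc7a3 CPM in a share of 0.71. UMIs of both Slc7a3 and Sstr2 occurred in 114 of 342 cells of the Slc7a3 type and in 0 of 181 of the S100a11 type, and 47 cells of the Slc7a3 type held neither. UMIs of both S100a11 and Tagln2 occurred in 180 of 181 cells of the S100a11 type and also in 155 of 342 of the Slc7a3 type. Thus S100a11 marked both types with a small difference, whereas Tagln2, Slc7a3 and Sstr2 differed more between them.

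Among genes led by fold change in the S100a11 type, Lef1, a transcription factor of the Wnt pathway, was counted at 33.2, 22.7, 32.6, 23.6 and 25.8 CPM in the S100a11 type of mice 1 to 5, against 0, 0, 0, 0 and 0.649 CPM in the Slc7a3 type. These were 249 UMIs against 3, a ratio of 115 with an exact 95% counting interval of 38.9 to 562. Traf3ip3, a membrane adaptor protein known from lymphocytes, was counted at 18.3, 20.9, 23.1, 21.3 and 20.3 CPM in the S100a11 type of mice 1 to 5, against 0, 0.325, 0, 1.43 and 0.216 CPM in the Slc7a3 type. Cldn9, a tight junction claudin, reached 47.4 ± 8 against 1.32 ± 1.29 CPM (log2 5.11 ± 0.24). All 5 sums of the S100a11 type exceeded all 5 of the Slc7a3 type for each of these genes. Etv1, an ETS transcription factor of sensory and motor neurons, was counted at 81.3, 63.1, 66.3, 101 and 83.0 CPM in the S100a11 type of mice 1 to 5, against 0, 1.63, 2.24, 1.72 and 5.20 CPM in the Slc7a3 type (log2 4.86 ± 0.21). A UMI of Etv1 was found in 88.4% of cells of the S100a11 type, 7.02% of the Slc7a3 type and 52.6% of satellite glia. Tmem233, a small membrane protein that interacts with voltage-gated sodium channels, was the most abundant of the 12 leading genes at 186 ± 25 against 6.17 ± 3.75 CPM (log2 4.76 ± 0.15).

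The other leading genes of the S100a11 type did not overlap between types. Kcnj3, an inwardly rectifying potassium channel opened by G proteins, stood at 17.6 ± 1.82 against 0.680 ± 0.496 CPM, log2 4.53. Kcnv1, a silent potassium channel subunit that alters its partners, stood at 30.1 ± 3.05 against 1.42 ± 1.09 CPM, log2 4.48. Plagl1, an imprinted zinc finger factor, varied little between mice (32.2 ± 2.51 against 1.42 ± 0.892 CPM, log2 4.58). Mctp1, a calcium-binding protein of secretory membranes, ranged from 4.98 CPM in mouse 1 to 45.2 CPM in mouse 3 within the S100a11 type and stayed at 0.880 CPM in the Slc7a3 type (log2 4.87). Adam11, a metalloprotease-like protein without catalytic activity, stood at 23.3 ± 9.32 against 0.968 ± 0.568 CPM, log2 4.53. Cgnl1, a junction protein that binds actin, stood at 12.7 ± 5.13 against 0.401 ± 0.300 CPM, log2 4.87, and Krt27, a keratin of hair follicles, at 28.7 ± 8.40 against 0.803 ± 0.884 CPM, log2 4.87.

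In the opposite direction, Pde1a, a calmodulin-activated phosphodiesterase that degrades cyclic nucleotides, had 0 UMIs in the S100a11 type of all 5 mice and 14.7, 46.8, 72.3, 51.6 and 42.9 CPM in the Slc7a3 type. Its 632 UMIs against 0 were at least 152-fold higher, taking 3 counts over the group as the limit for a count of 0. A UMI was seen in 54.1% of cells of the Slc7a3 type and in 34.1% of satellite glia. Gpr26, an orphan receptor coupled to G proteins, had 0 UMIs against 141, at least 33.9-fold higher in the Slc7a3 type, with 6.78, 9.76, 13.4, 10.9 and 10.6 CPM there. Adcy7, an adenylyl cyclase that forms cyclic AMP, was counted at 0, 0, 0, 0.463 and 0.263 CPM in the S100a11 type of mice 1 to 5, against 9.04, 19.8, 6.71, 13.2 and 9.09 CPM in the Slc7a3 type. Its 2 UMIs against 166 gave a ratio of 59.9 with an exact 95% counting interval of 16.3 to 498. None of the 3 overlapped between types.

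Caln1, a calmodulin-like neuronal protein, was counted at 1.66, 0, 1.05, 4.63 and 1.32 CPM in the S100a11 type of mice 1 to 5, against 68.9, 55.6, 91.7, 68.3 and 70.6 CPM in the Slc7a3 type (log2 -5.22 ± 0.25). It was high in the Slc7a3 type of every mouse, where 79.2% of cells held a UMI, against 6.63% in the S100a11 type and 1.2% in satellite glia. Ly6e, a lipid-anchored surface protein, stood at 0.647 ± 0.9 against 59.2 ± 15.3 CPM, log2 -5.74, and Cd79a, known as a signalling chain of the B cell receptor, at 0.569 ± 1 against 30.4 ± 5.66 CPM, log2 -5.21. Ifitm1, an interferon-induced membrane protein, was counted at 11.3, 9.11, 6.71, 33.0 and 30.7 CPM in the Slc7a3 type, higher in mice 4 and 5 than in the others, with 2 UMIs against 304 (a ratio of 109.6 with an exact 95% counting interval of 30.1 to 909). Ntn5, a netrin-related secreted protein, had 2 UMIs against 277 (a ratio of 99.9 with an exact 95% counting interval of 27.4 to 829) and was seen in 24.1% of satellite glia. Lemd1, a protein with a nuclear envelope domain, had 1 UMI against 129 (a ratio of 93.0 with an exact 95% counting interval of 16.4 to 3702). Btbd11, which has a protein interaction domain, had 3 against 204 (a ratio of 49.0 with an exact 95% counting interval of 16.5 to 239.7). The uncharacterised gene 1500009L16Rik stood at 0.396 ± 0.544 against 29.1 ± 6.99 CPM, log2 -5.51. None of these 8 genes overlapped between the types.

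Both types carried the genes by which peptidergic neurons are recognised. All 12 of 12 were fitted, with 7 higher in the S100a11 type, 3 higher in the Slc7a3 type and a median log2 fold change of 0.32. Calca, which encodes calcitonin gene-related peptide, was counted at 15989, 10236, 13596, 15701 and 11655 CPM in the S100a11 type of mice 1 to 5, against 12063, 8025, 10833, 11039 and 10451 CPM in the Slc7a3 type. The ranges overlapped although Calca was higher in the S100a11 type within 5 of 5 mice (log2 0.37 ± 0.06). Trpv1, the receptor of heat and capsaicin, was counted at 219, 288, 358, 266 and 247 CPM in the S100a11 type of mice 1 to 5, against 136, 206, 185, 164 and 157 CPM in the Slc7a3 type. The types did not overlap (log2 0.71 ± 0.08). Scn10a, the sodium channel Nav1.8 of nociceptors, stood at 194 ± 29.1 against 129.8 ± 13.8 CPM, log2 0.62, and Prph, the intermediate filament peripherin, at 4908 ± 158 against 3964 ± 188 CPM, log2 0.33. Kit, the receptor of stem cell factor, was counted at 58.1, 50.6, 29.4, 41.6 and 45.0 CPM in the S100a11 type of mice 1 to 5, against 104, 122, 73.8, 87.8 and 102 CPM in the Slc7a3 type. Kit (log2 -1.13) and Scn11a, the persistent sodium channel Nav1.9 (81.2 ± 20.4 against 134 ± 19.6 CPM, log2 -0.72), were higher in the Slc7a3 type with no overlap. Tac1, the precursor of substance P, stood at 6434 ± 1579 against 5622 ± 991 CPM (log2 0.20) and was not called in the full fit, but called without mouse 5 at 0.29. Calca and Prph were not called without the mouse as a block, the fit with 598 and 618 calls.

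Of 25 peptide precursors 13 were fitted, with 4 higher in the S100a11 type and 7 in the Slc7a3 type (median log2 -0.33). Sums of the list were 28421, 18332, 26136, 26891 and 20063 CPM against 23405, 17197, 24338, 23141 and 21522 CPM, higher in the S100a11 type in 4 of 5 mice, with Calca the most abundant. Gal, which encodes the neuropeptide galanin, was counted at 219, 147, 105, 217 and 192 CPM in the S100a11 type of mice 1 to 5, against 1582, 1212, 1467, 1564 and 1547 CPM in the Slc7a3 type. All sums of the Slc7a3 type were far above, with a log2 fold change of -3.06 ± 0.10. For Gal, 65.2% and 99.7% of cells of the respective types held a UMI, against 12.4% of satellite glia. Adcyap1, the precursor of PACAP, a peptide that raises cyclic AMP in its targets, was counted at 202, 135, 177, 251 and 174 CPM in the S100a11 type of mice 1 to 5, against 425, 396, 321, 516 and 432 CPM in the Slc7a3 type (log2 -1.16 ± 0.09). Both peptides separated the types in every mouse. Chgb, a granin of dense-core vesicles, stood at 37.0 ± 10.2 against 82.9 ± 20.8 CPM, log2 -1.21, also apart. Cartpt, the precursor of the CART peptide, overlapped at 370.3 ± 108 against 719 ± 138 CPM, log2 -0.92. A UMI of Cartpt was found in 87.8% and 76.6% of cells, and 24 of 342 cells held at least 50% of its UMIs in the Slc7a3 type. A cell of the Slc7a3 type had the higher Cartpt CPM in a share of 0.48 of cell pairs from 1 mouse. The 4 precursors higher in the S100a11 type differed little: besides Calca these were Calcb, the second calcitonin gene-related peptide gene (595 ± 131 against 477 ± 81.2 CPM, log2 0.31, not called without mouse 4 at 0.30, nor with equal cell numbers), Nmb, neuromedin B (587 ± 115 against 472 ± 71.5 CPM, log2 0.32, not called without mouse 4 at 0.24, nor with limma or equal cell numbers), and Scg2, secretogranin II (1399.6 ± 548 against 1165 ± 377 CPM, log2 0.26, not called without mice 1, 3 and 4 at 0.24, 0.24 and 0.24, nor with equal cell numbers). All 4 overlapped between types, and none was called without the mouse as a block, the fit with 598 and 618 calls. Vip, Pnoc and Pdyn had 0 UMIs in both types.

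Receptors that inhibit neurons through G proteins were divided between the types. Of 26 listed genes 14 were fitted, with 6 higher in the S100a11 type and 5 higher in the Slc7a3 type (median log2 0.13). Oprk1, the kappa opioid receptor, was counted at 23.2, 13.9, 12.6, 25.4 and 14.5 CPM in the S100a11 type of mice 1 to 5, against 2.26, 0.325, 0.745, 0.574 and 2.38 CPM in the Slc7a3 type. It was low in every Slc7a3 type sum (log2 3.76 ± 0.33). For Oprk1, 43.1% and 2.92% of cells of the respective types held a UMI, against 0% of satellite glia. Adora1, the adenosine A1 receptor, was counted at 4.98, 10.2, 6.31, 12 and 7.90 CPM in the S100a11 type of mice 1 to 5, against 50.8, 67.0, 46.2, 57.1 and 49.1 CPM in the Slc7a3 type (log2 -2.58 ± 0.15). Oprl1, the nociceptin receptor, was at a low level, 0.925 ± 0.864 against 7.95 ± 1.67 CPM, log2 -2.54. Npy1r, the receptor for neuropeptide Y, was counted at 113, 121, 92.6, 117 and 115 CPM in the S100a11 type of mice 1 to 5, against 259.8, 265, 189, 288 and 265 CPM in the Slc7a3 type (log2 -1.16 ± 0.08). Adora1, Oprl1, Npy1r and Sstr2 were higher in the Slc7a3 type with no overlap, and so was Cnr1, the cannabinoid receptor CB1 (20.3 ± 5.92 against 33.0 ± 4.19 CPM, log2 -0.82, not called without mouse 5 at -0.59, nor with limma). Sstr1, another somatostatin receptor, ran against Sstr2, at 39.4 ± 12.1 against 20.8 ± 7.34 CPM, log2 1.06, not called with limma, with overlapping ranges and the opposite sign in mouse 1.

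Receptors for inflammatory mediators were higher in the S100a11 type for 7 and in the Slc7a3 type for 1 of 13 fitted genes out of 30 (median log2 0.40). Osmr, the oncostatin M receptor, was counted at 54.8, 87.2, 95.7, 61.1 and 72.4 CPM in the S100a11 type of mice 1 to 5, against 7.91, 7.16, 5.96, 4.59 and 11 CPM in the Slc7a3 type. The types were far apart (log2 3.30 ± 0.16). For Osmr, 89.0% and 13.7% of cells of the respective types held a UMI, against 65.5% of satellite glia. Il6st, the gp130 subunit shared by receptors of the interleukin-6 family, was counted at 36.5, 46.4, 43.1, 46.3 and 46.9 CPM in the S100a11 type of mice 1 to 5, against 13.6, 25, 12.7, 18.6 and 18.0 CPM in the Slc7a3 type (log2 1.30 ± 0.14). Lifr, the receptor of leukaemia inhibitory factor and a further partner of gp130, overlapped at 214 ± 18.3 against 159.9 ± 31.7 CPM, log2 0.44, and was the most abundant gene of the list. Lifr was not called without the mouse as a block, the fit with 598 and 618 calls. Ptger1, a receptor of prostaglandin E, was counted at 66.4, 59.4, 70.5, 87.9 and 68.7 CPM in the S100a11 type of mice 1 to 5, against 41.8, 44.6, 35.0, 41.0 and 43.7 CPM in the Slc7a3 type (log2 0.78 ± 0.11). Ptger4, another, which raises cyclic AMP, was counted at 34.8, 17.6, 15.8, 25 and 25.8 CPM in the S100a11 type of mice 1 to 5, against 53.1, 57.2, 61.9, 49.6 and 51.5 CPM in the Slc7a3 type (log2 -1.19 ± 0.14). Neither overlapped, and Ptger4 was the single called gene of the list higher in the Slc7a3 type. Ptger2, a further receptor of prostaglandin E, had 9 and 97 UMIs and was not fitted.

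Of 13 receptors for neurotrophic factors 9 were fitted (median log2 0.17). Gfra1, the receptor that binds glial cell line-derived neurotrophic factor, was counted at 24.9, 43.1, 28.4, 30.5 and 35.0 CPM in the S100a11 type of mice 1 to 5, against 2.26, 3.58, 2.98, 2.87 and 4.55 CPM in the Slc7a3 type. It was low in the Slc7a3 type of every mouse (log2 3.27 ± 0.19). For Gfra1, 66.9% and 12% of cells of the respective types held a UMI, against 27.7% of satellite glia. Ngfr, the low-affinity p75 neurotrophin receptor, stood apart at 241 ± 36.3 against 146 ± 30.6 CPM, log2 0.80. Sort1, the sorting receptor sortilin, was higher in the Slc7a3 type at 2.05 ± 1.21 against 10.8 ± 3.41 CPM, log2 -2.15. However, 43.4% of satellite glia held a UMI, above both neuron types (12.2% and 30.4%). Gfra4, the receptor for persephin, stood at 33.1 ± 3.35 against 53.0 ± 8.03 CPM, log2 -0.72, and Kit was also higher in the Slc7a3 type. Gfra3, the artemin receptor, was not called (496 ± 150.4 against 435 ± 66.4 CPM, log2 0.16).

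Ion channels of sensory transduction differed in part. Of 18 TRP channels 8 were fitted, with Trpv1 and Trpm4 higher in the S100a11 type and Trpm3 in the Slc7a3 type (median log2 -0.07). Trpm4, a cation channel opened by calcium, stood at 23.0 ± 3.90 against 11.2 ± 2.89 CPM, log2 1.04, and Trpm3, a heat-sensitive channel, at 6.82 ± 2.33 against 13 ± 1.70 CPM, log2 -0.95, not called without mouse 2 at -0.79, nor with DESeq2 or limma. Of 16 channels gated by force, acid or other stimuli 11 were fitted, with 4 higher in the S100a11 type and 1 in the Slc7a3 type (median log2 0.11). Piezo2, the mechanically gated channel of touch, was counted at 46.5, 90.0, 57.8, 64.3 and 72.7 CPM in the S100a11 type of mice 1 to 5, against 37.3, 22.1, 41.7, 17.5 and 28.6 CPM in the Slc7a3 type (log2 1.41 ± 0.16). The types did not overlap. Asic3, an acid-sensing channel, was counted at 53.1, 65.9, 179.8, 68.9 and 57.9 CPM in the S100a11 type of mice 1 to 5, against 20.3, 28.0, 53.7, 33.0 and 29.4 CPM in the Slc7a3 type and was highest in mouse 3 in both types, with overlap by a narrow margin (log2 1.26 ± 0.12). Tmem63a, a mechanically gated channel, stood at 15.6 ± 5.30 against 2.24 ± 0.736 CPM, log2 2.73, Tmem63b, the most abundant gene of the list, at 89.9 ± 15.7 against 96.9 ± 11.6 CPM, log2 -0.13, and not called, and Ano3, of the anoctamin family, at 27.4 ± 7.20 against 13.7 ± 1.58 CPM, log2 1.07.

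Sodium channel genes were fitted for 12 of 17, with 3 higher in the S100a11 type and 4 in the Slc7a3 type (median log2 -0.01). Scn3a, Nav1.3, was counted at 0, 1.86, 1.05, 1.39 and 1.05 CPM in the S100a11 type of mice 1 to 5, against 9.04, 14.6, 21.6, 12 and 14.7 CPM in the Slc7a3 type (log2 -3.46 ± 0.32). Scn8a, Nav1.6, ran the other way at 8.57 ± 2.61 against 2.05 ± 0.790 CPM, log2 1.87, and neither overlapped. Scn2b, an auxiliary subunit, was higher in the S100a11 type at 22.3 ± 6.38 against 10.7 ± 6.52 CPM, log2 1.40, not called with limma, as was Scn10a. Fgf12, which binds sodium channel tails, stood at 44.0 ± 9.57 against 85.4 ± 4.32 CPM, log2 -0.85, and Scn7a, a sodium-sensing relative of these channels, at 68 ± 8.74 against 93.9 ± 17.4 CPM with overlap (log2 -0.44, not called without mice 2 and 3 at -0.32 and -0.39, nor with DESeq2). Scn7a was not called without the mouse as a block, the fit with 598 and 618 calls. Scn11a completed the 4 genes higher in the Slc7a3 type. Fgf13, the most abundant gene of the list, stood at 1006 ± 130.3 against 1167 ± 172 CPM, log2 -0.19, and Scn9a, Nav1.7, at 218 ± 68.5 against 184 ± 22.4 CPM, log2 0.25, and neither was called.

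Potassium channels gave 8 genes in each direction among 29 fitted of 44 (median log2 -0.03). Kcnk3, the acid-sensitive leak channel TASK-1, was counted at 9.96, 11.1, 2.10, 6.48 and 5.53 CPM in the S100a11 type of mice 1 to 5, against 149, 186, 114, 122 and 103 CPM in the Slc7a3 type. It was low in the S100a11 type throughout and lowest in mouse 3 (log2 -4.20 ± 0.14). For Kcnk3, 21.5% and 90.4% of cells of the respective types held a UMI, against 8.03% of satellite glia. Kcnk2, the leak channel TREK-1, which responds to stretch and temperature, was counted at 14.9, 13.5, 9.47, 16.7 and 12.1 CPM in the S100a11 type of mice 1 to 5, against 102, 130.4, 90.9, 121 and 107 CPM in the Slc7a3 type (log2 -3.05 ± 0.12). Kcnc4, a voltage-gated subunit of the Kv3 family, stood at 26.3 ± 16.2 against 136 ± 32.8 CPM, log2 -2.47, and Kcnh2, an ERG channel, at 1.28 ± 0.573 against 10.5 ± 3.38 CPM, log2 -3.34. All 4 were apart between types. In the other direction Kcna1, a Shaker-type channel that limits repetitive firing, stood at 29.2 ± 16 against 6.59 ± 4.92 CPM, log2 2.07, with overlap, beside Kcnj3 and Kcnv1. Kcnab2, a Shaker auxiliary subunit and the most abundant gene of the list, stood at 238 ± 35.5 against 235 ± 53.1 CPM, log2 0.05, and was not called.

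Calcium channel genes were fitted for 9 of 16, with 1 higher in the S100a11 type and 2 in the Slc7a3 type (median log2 0.11). Cacna2d1, the auxiliary subunit that binds gabapentin, was counted at 178, 204, 198, 146 and 196 CPM in the S100a11 type of mice 1 to 5, against 288, 321, 258, 271.1 and 300.0 CPM in the Slc7a3 type (log2 -0.63 ± 0.08). Its relative Cacna2d2 was counted at 92.9, 68.2, 71.5, 85.6 and 98.5 CPM in the S100a11 type of mice 1 to 5, against 47.4, 57.6, 46.2, 49.9 and 55.0 CPM in the Slc7a3 type (log2 0.70 ± 0.11). These related subunits thus differed in opposite directions, each without overlap. Cacna1h, the low-threshold T-type channel Cav3.2, was at a low level, 1.90 ± 2.28 against 10.2 ± 2.98 CPM, log2 -1.90, also apart. Cacnb3, an auxiliary subunit and the most abundant gene of the list, was not called (299 ± 33.6 against 282 ± 9.17 CPM, log2 0.11).

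The family of the label gene S100a11 did not move as 1 group. Of 27 S100, annexin and partner genes 14 were fitted, with 5 higher in each direction (median log2 0.02). Several S100 genes lie close together on chromosome 3: S100a1 (chr3:90511034-90514330), S100a13 (chr3:90514233-90524581), S100a4 (chr3:90603770-90606045) and S100a6 (chr3:90612894-90614414), and S100a11 and S100a10 (chr3:93555117-93564645) (GRCm38 positions from RefSeq). S100a13, which takes part in secretion of growth factors without a signal peptide, was counted at 468, 435, 266, 422 and 426 CPM in the S100a11 type of mice 1 to 5, against 979, 922, 689, 978 and 858 CPM in the Slc7a3 type (log2 -1.12 ± 0.07). S100a4, a binding partner of myosin, was counted at 4.98, 8.35, 3.16, 9.25 and 6.32 CPM in the S100a11 type of mice 1 to 5, against 24.8, 37.4, 24.6, 45.6 and 37.9 CPM in the Slc7a3 type (log2 -2.37 ± 0.17). Both were higher in the Slc7a3 type with no overlap. Their neighbours S100a6, the most abundant of the list, at 4154 ± 543 against 3032 ± 546 CPM, log2 0.48, and S100a1, at 54.4 ± 17.6 against 39.0 ± 7.83 CPM, log2 0.51, not called without mice 2 and 4 at 0.39 and 0.50, nor with DESeq2, limma or equal cell numbers, were higher in the S100a11 type with overlap. S100a10, the annexin A2 partner, stood at 2009 ± 263 against 1787 ± 193 CPM and was not called in the full fit (log2 0.19, called without mouse 3 at 0.20).

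S100b, on chromosome 10 (chr10:76253836-76261319) and best known from glia, was counted at 54.8, 121, 128, 148 and 175 CPM in the S100a11 type of mice 1 to 5, against 18.1, 44.9, 59.6, 38.2 and 79.7 CPM in the Slc7a3 type and overlapped (log2 1.44 ± 0.11). Of satellite glia, 100% held a UMI. Anxa2, annexin A2, was higher in the S100a11 type at 1317 ± 363 against 929 ± 150.3 CPM, log2 0.50. Anxa4 (17.4 ± 7.99 against 30.4 ± 7.56 CPM, log2 -0.82, not called with limma), Anxa6 (212 ± 70.0 against 300.3 ± 45.1 CPM, log2 -0.52) and Ahnak, a giant scaffold that binds the annexin A2 complex (233 ± 65.9 against 293 ± 65.8 CPM, log2 -0.33, not called without mice 1, 2, 4 and 5 at -0.29, -0.29, -0.32 and -0.27, nor with DESeq2 or limma, nor without cells above 10% mitochondrial), were higher in the Slc7a3 type, all with overlap. Without the mouse as a block, the fit with 598 and 618 calls, none of Anxa2, Anxa4, Anxa6, Ahnak, S100a1 and S100a6 was called.

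Among 33 fitted of 40 actin-binding and cytoskeletal genes, 6 were higher in each direction (median log2 -0.01). Tagln3, the neuronal transgelin, was counted at 267, 139, 144, 214 and 193 CPM in the S100a11 type of mice 1 to 5, against 424, 384, 406, 451 and 433 CPM in the Slc7a3 type (log2 -1.16 ± 0.09). It thus ran against its relative Tagln2, and neither overlapped between types. Marcks, a kinase substrate that links actin to the membrane, was counted at 56.4, 84.0, 62.1, 61.1 and 63.7 CPM in the S100a11 type of mice 1 to 5, against 185, 254, 157, 188 and 211 CPM in the Slc7a3 type (log2 -1.59 ± 0.09), and its relative Marcksl1 stood at 80.8 ± 42.3 against 214 ± 22.2 CPM, log2 -1.56. Both were higher in the Slc7a3 type with no overlap, although 96.0% and 99.6% of satellite glia also held a UMI. Tmsb10, thymosin beta 10, which binds actin monomers, was the most abundant gene of the list and was not called in the full fit (7648 ± 2096 against 8879.9 ± 1319 CPM, log2 -0.23, called without mouse 5 at -0.29).

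Of 27 filament and microtubule genes 24 were fitted, and 5 were higher in the S100a11 type and 3 in the Slc7a3 type (median log2 0.01). Stmn4, a tubulin-binding stathmin, was counted at 63.1, 111, 96.8, 67.5 and 76.1 CPM in the S100a11 type of mice 1 to 5, against 178, 162, 204, 242 and 240.1 CPM in the Slc7a3 type and stood apart (log2 -1.30 ± 0.13). Ina, alpha-internexin, at 18.6 ± 5.88 against 34.2 ± 5.82 CPM, log2 -0.70, not called without mice 3 and 4 at -0.59 and -0.52, nor with DESeq2, and Tuba4a, an alpha-tubulin, at 144 ± 45.2 against 180.1 ± 27.2 CPM, log2 -0.34, not called without mice 1, 2, 4 and 5 at -0.30, -0.33, -0.30 and -0.30, nor with DESeq2 or equal cell numbers, were also higher in the Slc7a3 type. Prph, Tubb3, a neuronal beta-tubulin (3654 ± 930.3 against 2933 ± 621 CPM, log2 0.33), Tubb2b, another beta-tubulin (867 ± 118 against 724 ± 72.1 CPM, log2 0.27, not called without mice 1, 2 and 4 at 0.24, 0.26 and 0.28, nor with limma or equal cell numbers), Stmn2, an axonal stathmin (3667 ± 287 against 3204 ± 136 CPM, log2 0.21, not called without mice 1, 4 and 5 at 0.23, 0.20 and 0.22, nor with limma or equal cell numbers), and Mapt, the microtubule protein tau (454 ± 41.0 against 380.3 ± 39.6 CPM, log2 0.27, not called without mouse 4 at 0.27, nor with equal cell numbers), were higher in the S100a11 type. Of these 8 genes Stmn4 alone was called without the mouse as a block, the fit with 598 and 618 calls. Tuba1a, the most abundant of the list, stood at 7172 ± 1602 against 7088 ± 1655 CPM and was not called (log2 0.04, opposite in sign without mouse 2 at -0.0157).

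Amino acid transporters, the family of Slc7a3, were fitted for 19 of 28, with 3 higher in the S100a11 type and 4 in the Slc7a3 type (median log2 -0.14). Slc6a15, a transporter of neutral amino acids, was counted at 109.5, 96.9, 99.9, 96.7 and 108 CPM in the S100a11 type of mice 1 to 5, against 54.2, 58.5, 45.5, 43.0 and 55.8 CPM in the Slc7a3 type (log2 1.002 ± 0.10) and did not overlap. Slc7a1, a related cationic amino acid transporter, was counted at 41.5, 45.5, 26.3, 38.9 and 46.1 CPM in the S100a11 type of mice 1 to 5, against 22.6, 37.7, 17.9, 26.1 and 23.8 CPM in the Slc7a3 type. It ran against Slc7a3 with overlap (log2 0.66 ± 0.13, not called without mouse 5 at 0.52). Slc6a6, the taurine transporter (1.38 ± 1.39 against 8.37 ± 4.16 CPM, log2 -2.82), Slc1a5, a glutamine transporter (5.39 ± 0.986 against 12.7 ± 2.01 CPM, log2 -1.21, not called with limma), and Slc7a5, the light chain of a large neutral amino acid transporter (14.1 ± 3.65 against 23.3 ± 2.90 CPM, log2 -0.68, not called without mice 3 and 5 at -0.57 and -0.64, nor with DESeq2, limma or equal cell numbers), were higher in the Slc7a3 type with no overlap. Slc1a5 was found in 85.9% of satellite glia, above both neuron types (23.2% and 33.0%). Slc38a2 stood at 101 ± 24.5 against 81.1 ± 12.5 CPM, log2 0.37, not called without mice 2 and 5 at 0.37 and 0.30, nor with DESeq2 or limma. Slc7a1, Slc7a5 and Slc38a2 were not called without the mouse as a block, the fit with 598 and 618 calls. Slc3a2, the heavy chain shared by several of these transporters, stood at 134 ± 67.4 against 137 ± 40.5 CPM and was not called (log2 -0.09, opposite in sign without mouse 5 at 0.0645).

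Genes of vesicles and transmitter release gave 8 in each direction among 25 fitted of 39 (median log2 0.03). Synaptotagmins, the calcium sensors and regulators of vesicle fusion, were divided. Syt4 was counted at 859.5, 927, 819, 895 and 945 CPM in the S100a11 type of mice 1 to 5, against 1361, 1563, 1343, 1492 and 1509 CPM in the Slc7a3 type (log2 -0.69 ± 0.06) and was the most abundant gene of the list. Syt1 was counted at 274, 221, 212, 223 and 215 CPM in the S100a11 type of mice 1 to 5, against 137, 158, 124, 138 and 129 CPM in the Slc7a3 type (log2 0.73 ± 0.08). Neither overlapped, and they ran in opposite directions. At lower levels Syt6 was higher in the S100a11 type (15.9 ± 8.18 against 1 ± 0.928 CPM, log2 4.09) and Syt2 in the Slc7a3 type (1.36 ± 0.861 against 9.27 ± 1.29 CPM, log2 -2.38). The small GTPases of secretory vesicles Rab27b (66.0 ± 11.9 against 39.0 ± 2.96 CPM, log2 0.80) and Rab3b (10.9 ± 8.07 against 31.4 ± 10.4 CPM, log2 -1.69) also differed in opposite directions, Rab3b with overlap.

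Transcription factors and RNA regulators of sensory lineages were fitted for 29 of 44, with 15 higher in the S100a11 type and 5 in the Slc7a3 type (median log2 0.38). Bcl11a, a zinc finger repressor, was counted at 4.98, 3.25, 4.21, 4.16 and 2.11 CPM in the S100a11 type of mice 1 to 5, against 41.8, 50.1, 59.6, 51.1 and 59.1 CPM in the Slc7a3 type (log2 -4.01 ± 0.20). It had the largest fold among factors higher in the Slc7a3 type. For Bcl11a, 11.6% and 83.0% of cells of the respective types held a UMI, against 0% of satellite glia. Pou4f3, a POU factor, was higher there at a low level (0.674 ± 0.788 against 11.1 ± 2.81 CPM, log2 -3.30). Its relative Pou4f1, Brn3a, was counted at 216, 244, 151, 210.5 and 235 CPM in the S100a11 type of mice 1 to 5, against 91.5, 143, 82.0, 131 and 124 CPM in the Slc7a3 type and was higher in the S100a11 type (log2 0.89 ± 0.09). These related factors were each apart between types. Onecut2 varied between mice and was higher in the S100a11 type with no overlap (20.4 ± 14.3 against 2.05 ± 1.95 CPM, log2 3.02), besides Etv1. Runx1, a runt factor that directs nociceptor subtypes, at 104 ± 8.46 against 173 ± 20.8 CPM, log2 -0.68, Tlx3, a homeobox factor, at 173 ± 9.58 against 270.1 ± 18.2 CPM, log2 -0.61, and Ldb2, a partner of LIM domain factors, at 119 ± 26.3 against 215 ± 30.5 CPM, log2 -0.84, were higher in the Slc7a3 type with no overlap. Klf7, the most abundant of the list, overlapped at 484 ± 35.2 against 388 ± 69.7 CPM, log2 0.36 and was not called without the mouse as a block, the fit with 598 and 618 calls.

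Hox genes, which record position along the body axis, were fitted for 15 of 29, with 6 higher in the S100a11 type and 3 in the Slc7a3 type (median log2 0.53). The 3 higher in the Slc7a3 type were of the Hoxd cluster: Hoxd8 (20 ± 9.67 against 37.5 ± 7.60 CPM, log2 -0.70, not called without mice 2 and 3 at -0.55 and -0.58, nor with equal cell numbers), Hoxd9 (24.9 ± 7.68 against 40.3 ± 8.32 CPM, log2 -0.64) and Hoxd1 (28.0 ± 8.30 against 41.2 ± 6.97 CPM, log2 -0.56, not called without mice 2 and 3 at -0.34 and -0.57, nor with DESeq2, limma or equal cell numbers). None of the Hoxd genes was called in the other direction, where Hoxa9 was counted at 44.8, 58.9, 49.4, 49.5 and 58.7 CPM in the S100a11 type of mice 1 to 5, against 39.5, 29.9, 29.1, 33.9 and 36.6 CPM in the Slc7a3 type and stood apart (log2 0.70 ± 0.12). Hoxb5 (32.8 ± 14.3 against 17.1 ± 4.94 CPM, log2 1.02, not called without mouse 5 at 0.70, nor with limma or equal cell numbers) and Hoxa5 (9.74 ± 3.18 against 5.68 ± 1.30 CPM, log2 0.83, not called without mice 2, 3, 4 and 5 at 0.84, 0.83, 0.73 and 0.92, nor with DESeq2, limma or equal cell numbers) overlapped. Hoxa7, the most abundant, did not differ beyond its spread (61.0 ± 7.68 against 61.1 ± 7.49 CPM, log2 0.06). Hoxa5, Hoxd1, Hoxd8 and Hoxd9 were not called without the mouse as a block, the fit with 598 and 618 calls. With UMIs pooled over mice, Hoxd10 stood at 3.52 against 13.4 CPM, Hoxd11 at 3.72 against 9.70 and Hoxd3 at 2.79 against 4.10. Hoxd4 ran the other way at 14.8 against 11.3 CPM, and none of these was among the called genes.

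Guidance and adhesion genes were higher in the S100a11 type for 16 and in the Slc7a3 type for 7 of 34 fitted out of 71 (median log2 0.36). About 11% of all fitted genes were called in each direction, and the list was not tested against that share. Nrp1, neuropilin-1, was counted at 87.9, 113, 78.9, 98.5 and 131 CPM in the S100a11 type of mice 1 to 5, against 11.3, 12, 27.6, 9.75 and 9.74 CPM in the Slc7a3 type (log2 3.12 ± 0.18). Nrp2, neuropilin-2, was counted at 53.1, 48.2, 31.6, 47.2 and 50.8 CPM in the S100a11 type of mice 1 to 5, against 1.13, 2.60, 3.73, 2.87 and 7.58 CPM in the Slc7a3 type (log2 3.48 ± 0.21). Plxnc1, a plexin, was counted at 78.0, 90.0, 87.3, 82.3 and 92.2 CPM in the S100a11 type of mice 1 to 5, against 15.8, 24.7, 21.6, 20.1 and 28.6 CPM in the Slc7a3 type (log2 1.92 ± 0.11). Nrp1, Nrp2 and Plxnc1 were higher in the S100a11 type with no overlap, as was Sema3c, a secreted semaphorin that binds neuropilins (13.8 ± 3.33 against 0.505 ± 0.541 CPM, log2 4.19). Of satellite glia, 43.4% held a UMI of Nrp2, 22.5% of Sema3c, 18.1% of Nrp1 and 6.43% of Plxnc1. Slit1, a secreted repellent of axons, was higher in the Slc7a3 type at 1.03 ± 1.15 against 11.6 ± 2.54 CPM, log2 -3.19.

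Immediate early and stress genes, which dissociation can also raise, were higher in the S100a11 type for 2 and in the Slc7a3 type for 7 of 16 fitted out of 24 (median log2 -0.33). Their sums were 4235, 3798, 3768, 3864 and 3849 CPM in the S100a11 type and 4896, 4366, 5122, 4833 and 4973 CPM in the Slc7a3 type, higher in the latter in 5 of 5 mice. Ier3, an early response gene, was counted at 8.30, 32.9, 32.6, 19 and 16.9 CPM in the S100a11 type of mice 1 to 5, against 101, 68, 142, 108 and 72.5 CPM in the Slc7a3 type (log2 -1.997 ± 0.16). Fosb (75.7 ± 16.1 against 145 ± 33.7 CPM, log2 -0.97), Jun (589 ± 105 against 989 ± 173 CPM, log2 -0.73), Atf3 (219 ± 37.5 against 336 ± 44.6 CPM, log2 -0.58) and Klf6 (209 ± 54.5 against 376 ± 79.5 CPM, log2 -0.86), all transcription factors of the early response, were also higher in the Slc7a3 type with no overlap. Klf4, a related zinc finger factor (49.9 ± 12.5 against 24.4 ± 5.77 CPM, log2 1.19), and the small heat shock protein Hspb1 (635 ± 97.3 against 471 ± 53.1 CPM, log2 0.44, not called with limma) ran the other way. Hspb1 was not called without the mouse as a block, the fit with 598 and 618 calls. Jund, the most abundant, was not called (906 ± 143 against 1003 ± 99.4 CPM, log2 -0.14). The part of dissociation in these differences was not tested.

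Of 24 genes known to respond to axon injury 14 were fitted, with 6 higher in the S100a11 type and 7 in the Slc7a3 type (median log2 -0.11). Csf1, the growth factor of microglia and macrophages, was counted at 3.32, 12.1, 5.26, 6.94 and 7.11 CPM in the S100a11 type of mice 1 to 5, against 40.7, 35.5, 42.5, 26.4 and 33.1 CPM in the Slc7a3 type (log2 -2.10 ± 0.19) and did not overlap. Gal, Atf3, Jun and Stmn4 were higher in the same type. Tes, a focal adhesion protein, was higher in the S100a11 type at 21.3 ± 7.78 against 6.48 ± 2.70 CPM, log2 1.71, with no overlap. Tubb3 and Hspb1 ran with it.

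Markers of other sensory neurons were sparse. Of 17 genes of itch and nonpeptidergic neurons 3 were fitted: Plxnc1 and P2rx3, an ATP-gated channel (66.3 ± 20.9 against 46.8 ± 13 CPM, log2 0.50, not called without mouse 2 at 0.43), were higher in the S100a11 type, and Ptprt, a receptor phosphatase and the most abundant, was counted at 54.8, 83.5, 59.9, 53.7 and 74.3 CPM in the S100a11 type of mice 1 to 5, against 139, 258, 146, 186 and 205 CPM in the Slc7a3 type and was higher in the Slc7a3 type (log2 -1.52 ± 0.09). P2rx3 was not called without the mouse as a block, the fit with 598 and 618 calls. Their sums ranged from 199 to 325 CPM in the S100a11 type and from 208 to 353 CPM in the Slc7a3 type, and Lpar5, Mrgprb4 and Mrgprb5 were at 0 in both. Of 21 markers of myelinated, cold-sensing and low-threshold neurons 5 were fitted. Htr3a, a serotonin-gated channel, was counted at 34.8, 68.2, 42.1, 54.6 and 90.3 CPM in the S100a11 type of mice 1 to 5, against 4.52, 7.81, 23.1, 3.44 and 14.3 CPM in the Slc7a3 type and was higher in the S100a11 type with no overlap (log2 2.71 ± 0.22). Nefh, the heavy neurofilament and most abundant of these, stood at 160.0 ± 37.2 against 163 ± 18.3 CPM and was not called (log2 -0.01, opposite in sign without mice 1, 2, 4 and 5 at 0.0643, 0.00197, 0.00536 and 0.0118). Sums of this list were 206, 303, 323, 246 and 351 CPM against 230.4, 251, 261, 205 and 314 CPM, and none of its members was at 0 in both types.

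Of 13 genes common to neurons all were fitted, with 7 higher in the S100a11 type and 0 in the Slc7a3 type (median log2 0.24). Besides Pou4f1, Syt1, Prph, Tubb3 and Stmn2, these included Rbfox3, the splicing factor NeuN (342 ± 81.6 against 269 ± 19.3 CPM, log2 0.38, not called without mice 4 and 5 at 0.36 and 0.32, nor with limma). Prph, Tubb3, Stmn2 and Rbfox3 were not called without the mouse as a block, the fit with 598 and 618 calls. The list was high in every sum of both types, at 19261, 18272, 19221, 18513 and 17211 CPM and 16906, 15253, 17652, 16531 and 15468 CPM.

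Transcripts of satellite glia, which wrap these neurons, were unequal between the types in some mice. Of 15 markers 6 were fitted, with 2 higher in the S100a11 type and 0 in the Slc7a3 type. Their sums were 1898, 929, 1082, 494 and 524 CPM in the S100a11 type and 376, 381, 600.1, 443 and 491 CPM in the Slc7a3 type, higher in the former in 5 of 5 mice, with Apoe the most abundant and Sox10 at 0 in both. Apoe, which carries lipids, was counted at 1264, 469, 615, 148 and 174 CPM in the S100a11 type of mice 1 to 5, against 23.7, 91.4, 212, 106 and 113 CPM in the Slc7a3 type. It was high in mice 1 to 3 of the S100a11 type and overlapped (log2 1.77 ± 0.31). Sparc, a secreted matrix protein, was counted at 48.1, 24.1, 22.1, 5.55 and 8.95 CPM in the S100a11 type of mice 1 to 5, against 2.26, 1.95, 8.95, 5.74 and 5.84 CPM in the Slc7a3 type. It was high in the S100a11 type of the same mice (log2 1.64 ± 0.35, not called without mouse 2 at 1.17), and neither DESeq2 nor limma called either gene. Of the Apoe UMIs in the S100a11 type, 50% lay in 4 of 181 cells, 2 of them in mouse 1. Without these cells and the 2 cells that held 50% of the Dcn UMIs of the Slc7a3 type, an alternative chosen after seeing the data, Apoe in the S100a11 type was 26.2, 182, 615, 148 and 97.5 CPM with a log2 fold change of 0.72, and Sparc was not called (log2 0.95). Called genes were then 1046 and 994. The part of glial RNA in the other differences was not tested.

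Markers of Schwann cells were higher in the Slc7a3 type for 3 fitted genes of 10: Pmp22 (165 ± 33.7 against 352 ± 27.0 CPM, log2 -1.05), Mbp (16.4 ± 3.35 against 34.8 ± 9.62 CPM, log2 -1.03) and Cnp (70.6 ± 25.9 against 100.5 ± 18.2 CPM, log2 -0.56), all myelin genes. Sums were 237, 286, 282, 217 and 270.8 CPM against 508, 482, 545, 475 and 453 CPM, lower in the S100a11 type in 5 of 5 mice, with Pmp22 the most abundant. Of the defining markers, Prx had 1 and 0 UMIs and Mag 1 and 0. Of 12 endothelial markers 1 was fitted, Egfl7, a secreted vessel protein (72.6 ± 18.1 against 93.7 ± 13.8 CPM, log2 -0.38, not called without mice 2, 3, 4 and 5 at -0.30, -0.36, -0.40 and -0.39, nor with DESeq2 or limma), with sums of 101, 67.7, 55.7, 88.4 and 86.9 CPM against 104, 117, 79.0, 122 and 145 CPM, and Pecam1 at 3 and 3 UMIs. Esam had 46 and 10 UMIs and Vwf 9 and 2. Cnp and Egfl7 were not called without the mouse as a block, the fit with 598 and 618 calls. Ly6a had 0 and 221 UMIs. None of the 10 Schwann cell or 12 endothelial markers was at 0 in both types, and the part of either cell type in the differences was not tested.

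Of 12 fibroblast and mural markers 2 were fitted, and both were called higher in the Slc7a3 type. Dcn, decorin, a matrix proteoglycan and the most abundant of the list, was counted at 8.30, 6.96, 17.9, 18.5 and 26.1 CPM in the S100a11 type of mice 1 to 5, against 2.26, 3.58, 2.24, 80.3 and 97.6 CPM in the Slc7a3 type. In the Slc7a3 type it was high in mice 4 and 5 alone, and it was higher in the S100a11 type in the other 3 mice (log2 -1.41 ± 0.30). DESeq2 turned the direction (log2 0.26), and leaving out mouse 4 or mouse 5, or the 6 cells highest in Apoe or Dcn, ended the call (log2 -0.93, -0.84 and -0.29). Equal cell numbers also ended the call (log2 -1.09). Apod, a lipid-binding protein, was counted at 6.64, 17.2, 12.6, 15.7 and 31.9 CPM in the S100a11 type of mice 1 to 5, against 13.6, 15.3, 16.4, 20.9 and 72.7 CPM in the Slc7a3 type, high in mouse 5 of the Slc7a3 type (log2 -0.67 ± 0.18). Without mouse 5 its log2 fold change was -0.22 and it was not called. At least 50% of its 490 UMIs in the Slc7a3 type lay in 1 of 342 cells. Neither Dcn nor Apod was called without the mouse as a block, the fit with 598 and 618 calls. Neither was called with DESeq2 or limma. Sums of the list were 14.9, 31.1, 35.8, 34.7 and 63.2 CPM against 15.8, 20.2, 20.1, 103 and 175 CPM, and none of its members was at 0 in both types. Of the members not fitted, Pdgfrb had 16 and 0 UMIs, Col1a2 11 and 2, Col1a1 2 and 0 and Col3a1 1 and 0. In the other direction Lum had 6 and 10 UMIs, Igfbp6 4 and 8, Acta2 1 and 7, Rgs5 0 and 3, Pdgfra 0 and 2 and Mgp 0 and 1. Of 12 macrophage markers 0 were fitted, and the sums were 8.30, 7.42, 2.10, 8.33 and 7.11 CPM against 9.04, 8.13, 5.96, 12 and 9.09 CPM. C1qb (22 and 36 UMIs) and Aif1 (18 and 44 UMIs) were the most abundant, and C1qc was at 0 in both. The part of these cells in the differences was not tested.

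Cytosolic ribosomal protein genes were nearly level, with 4 of 78 fitted (of 80) higher in the S100a11 type and 0 in the Slc7a3 type (median log2 0.04). These were Rpl36a (859 ± 179 against 599.5 ± 97.8 CPM, log2 0.54), Rps9 (1144 ± 238 against 927 ± 131 CPM, log2 0.31), Rpl22 (175 ± 32.6 against 143 ± 27.6 CPM, log2 0.29, not called without mice 1, 2, 4 and 5 at 0.26, 0.30, 0.35 and 0.29, nor with DESeq2, limma or equal cell numbers) and Rps20 (1112 ± 258 against 966 ± 245 CPM, log2 0.23, not called without mice 4 and 5 at 0.23 and 0.20, nor with equal cell numbers), none of which was called without the mouse as a block, the fit with 598 and 618 calls. Rpl41, the most abundant, stood at 3540 ± 777 against 3612 ± 619 CPM and was not called (log2 -0.02, opposite in sign without mice 1 and 3 at 0.0131 and 0.0258). Of 37 mitochondrially encoded genes 17 were fitted, with 2 higher in the S100a11 type and 4 in the Slc7a3 type (median log2 -0.09). The ribosomal RNAs Rnr1, at 53.1, 94.2, 158, 61.1 and 76.4 CPM in the S100a11 type of mice 1 to 5, against 181, 281, 494, 122 and 140.5 CPM in the Slc7a3 type (log2 -1.30 ± 0.11), and Rnr2 (526 ± 405 against 1086 ± 408 CPM, log2 -1.16) were higher in the Slc7a3 type within 5 of 5 mice and highest in mouse 3. In the Slc7a3 type 18 and 24 of 342 cells held at least 50% of their UMIs. ND4L (195 ± 62.4 against 256 ± 47.5 CPM, log2 -0.40, not called without mouse 2 at -0.30) and ND5 (273 ± 69.4 against 329.9 ± 52.2 CPM, log2 -0.28, not called without mice 1, 2, 4 and 5 at -0.24, -0.23, -0.26 and -0.25, nor with DESeq2 or equal cell numbers, nor without cells above 10% mitochondrial), subunits of respiratory complex I, were higher there too. By contrast, ATP6, of the ATP synthase (11736 ± 2385 against 9056 ± 1487 CPM, log2 0.39), and ND1, also of complex I (6681 ± 1475 against 5514 ± 778 CPM, log2 0.28, not called without mouse 4 at 0.30, nor with limma), were higher in the S100a11 type, all with overlap. Of these 6 genes Rnr1 alone was called without the block.

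Across all 14 annotated types, S100a11 had its highest levels in these types and in their relative PEP1_Dcn: 1027 ± 182 CPM in the S100a11 type, 752 ± 117 CPM in the Slc7a3 type and 723 ± 101 CPM in PEP1_Dcn, where the last pair differed by less than the spread between mice. The lowest S100a11 level was 2.34 ± 1.53 CPM, in NF_Pvalb neurons. Tagln2 was highest in the S100a11 type (1235 ± 74.0 CPM), next in endothelial cells (845 ± 124 CPM) and NP_Mrgprd neurons (585 ± 175 CPM), and the Slc7a3 type ranked 7 of 14. Slc7a3 was at 42.6 ± 17.3 CPM in the Slc7a3 type and 29.2 ± 23.7 CPM in PEP1_Dcn, within the spread, and below 4 CPM elsewhere. Sstr2 was highest in the Slc7a3 type, at 71.1 ± 7.52 CPM, with 4.97 ± 1.14 CPM next, in the S100a11 type. These levels describe types chosen by the same counts and were given no test.

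Several leading genes were not confined to peptidergic neurons. Etv1 and Tmem233, high in the S100a11 type, reached 488 ± 78.9 CPM in NF_Pvalb neurons and 756 ± 107 CPM in NP_Nts neurons, where they were highest. Lef1 was highest in endothelial cells (55.9 ± 32.1 CPM), followed by the S100a11 type, and Osmr in NP_Nts neurons (336 ± 28.3 CPM). Traf3ip3, Cldn9 and Oprk1 had their highest mean in the S100a11 type. Gal and Kcnk3, high in the Slc7a3 type, were higher still in PEP1_Dcn, at 2514 ± 729.7 CPM and 264 ± 42.1 CPM. Gpr26 was highest in PEP3_Trpm8 neurons (26.6 ± 8.21 CPM), and Ly6e in endothelial cells (1604 ± 277 CPM). Pde1a, Bcl11a, Adcyap1, Npy1r and Cd79a had their highest mean in the Slc7a3 type.

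**Figure D3:**
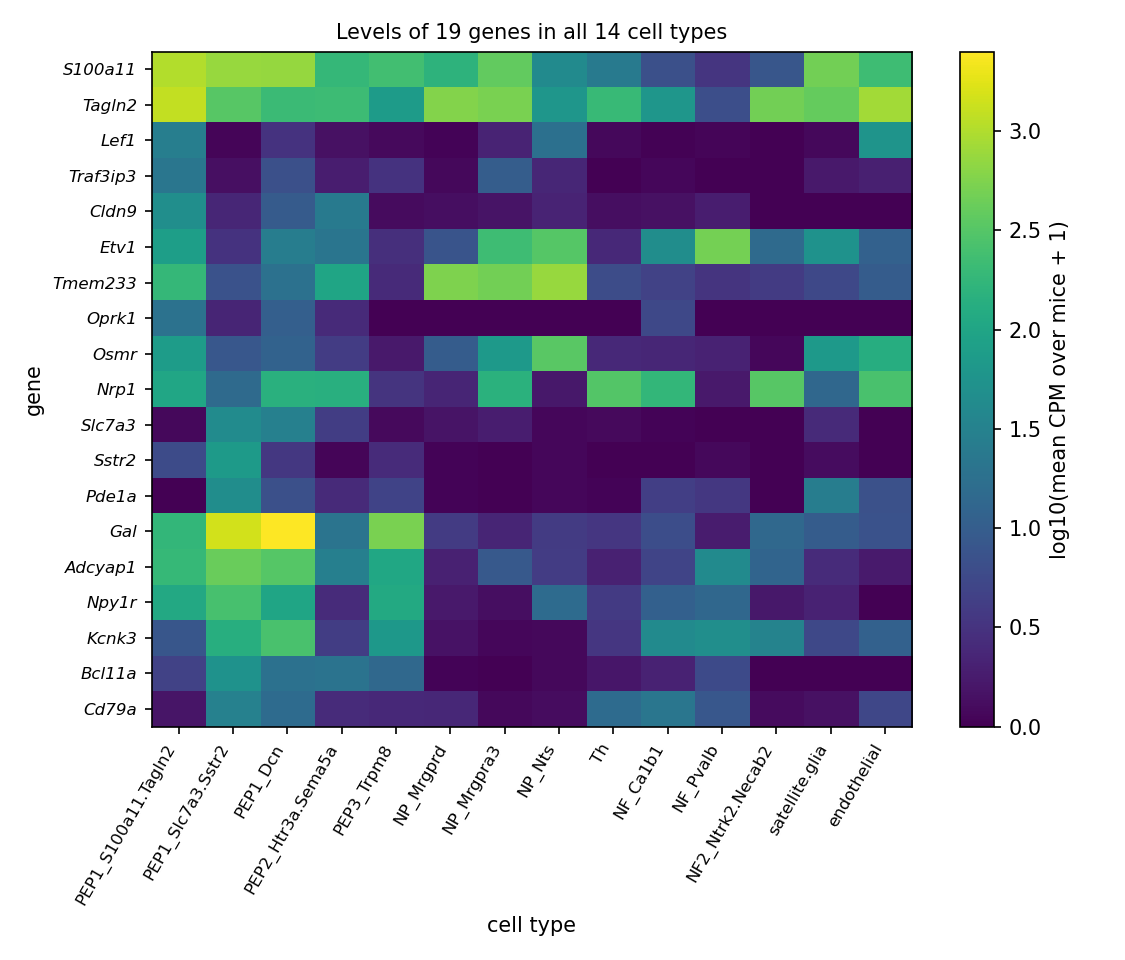
Colour gives log10 of the mean CPM over mice, after adding 1, for 19 genes (vertical axis, chosen after their values were seen) in 14 annotated cell types (horizontal axis). S100a11 is bright in all PEP1 types, Tagln2 in the S100a11 type and several others, and Gal in the Slc7a3 type, PEP1_Dcn and PEP3_Trpm8.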

How the data were processed

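The authors captured single cells of lumbar ganglia of 5 mice and deposited raw UMI counts per gene and cell with a table of cell types. Per the labels and methods, Cell Ranger 2.0.0 with mm10 and Seurat 3.0.1 made these files, and the authors removed cells by detected genes and mitochondrial share before naming types. The matrix held 17271 rows, of which 4 named no mouse gene and were left out (143 UMIs). Mitochondrial rows carry names without a prefix, and 37 were matched by these names in place of the pattern planned. UMIs were summed per mouse and type, giving 10 sums, and fitted with edgeR 4.0.16 in R 4.3.3 (TMM, filterByExpr, quasi-likelihood test with the mouse as a block). Alternatives used no block (598 and 618 calls), DESeq2 1.42.0, limma 3.58.1 on means of cells, no filter, equal cell numbers, no cells above 10% mitochondrial, an adjusted p of 0.05 and each mouse left out. An alternative without 6 cells highest in Apoe or Dcn was added after the data were seen, as were the genes drawn in the figures. Gene positions are from RefSeq on GRCm38. Pairing follows from both types coming from 1 library, and deviations from the group means correlated at 0.11, 0.40, 0.40, 0.24 and 0.29 within mice, each above any other mouse. Python 3.11.15 made the tables, and the fit was tested on simulated data.

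Genes were named by rule: the 4 label genes, the 12 largest called differences per direction with a UMI in at least 25% of cells of the higher type and the same sign in 5 of 5 mice, and in each of 30 lists up to 4 called members with the largest difference and the most abundant member. This gave 137 genes, and some genes are not reported here. A further 36 with fold changes in the text were named after their values were seen, mostly to complete small counts. The members and lists were chosen with earlier results of these data known. A count of 0 was read against 3 counts over the group, and intervals (95%) cover counting error only.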

Additional observations from a re-analysis of the deposited data

Results flagged for a closer look

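Each mouse gives a log2 ratio of CPM + 1 between its S100a11 and Slc7a3 types. For 174 results the highest or lowest of 5 mice was compared with the nearest other, and 12 had a mouse far from the rest, where chance at about 1 in 20 gives 8.70. Mouse 3 stood apart for Gal (-3.79 in mouse 3 against -3.04 to -2.85 in the others), Kcnk3 (-5.21 in mouse 3 against -4.05 to -3.78 in the others), Ahnak (0.10 in mouse 3 against -0.51 to -0.39 in the others), Tuba4a (0.0345 in mouse 3 against -0.51 to -0.37 in the others), Rab27b (0.39 in mouse 3 against 0.76 to 0.89 in the others) and ND5 (0.0764 in mouse 3 against -0.43 to -0.35 in the others). Mouse 1, with 10 cells of the S100a11 type, stood apart for Lemd1 (-2.45 in mouse 1 against -3.43 to -3.20 in the others), Klf6 (-0.41 in mouse 1 against -1.06 to -0.90 in the others), Hoxa7 (-0.37 in mouse 1 against 0.02 to 0.13 in the others) and the log2 ratio of median UMIs per cell (-0.68 against 0.23 to 0.48). Mouse 2 stood apart for Adcy7 (-4.38 in mouse 2 against -3.33 to -2.95 in the others) and Hoxd1 (-1.39 in mouse 2 against -0.42 to -0.28 in the others). Lemd1 and Adcy7 rest on 1 and 2 UMIs in the S100a11 type. Ahnak, Tuba4a and ND5 were each opposite in sign in mouse 3 to the other mice, and Hoxa7 in mouse 1.

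The 4 features that name no mouse gene held 18 UMIs in the cells of both types, and 143 UMIs in all cells. The comparisons did not use them.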

How the results depend on the processing

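Of 155 called genes named with fold changes, 103 kept call and direction under every alternative in which they were fitted, and 94 of these were fitted under all. Without the mouse as a block 598 and 618 genes were called in place of 1030 and 1039, all of them among the paired calls, and 44 named genes were no longer called. DESeq2 called 679 and 666, and 17 named genes were no longer called. With limma on means of cells 690 and 801 genes were called and 25 named calls were lost. Equal cell numbers gave 777 and 785 genes and lost 17 named calls. Leaving out 1 mouse lost from 7 (mouse 1) to 18 (mouse 4) named calls. The cause was not tested. Under the stricter rule, 335 of 352 and 348 of 362 genes were also found without the block. Leaving out each mouse gave 757 to 1078 and 730 to 988 genes, and 320 to 378 and 340 to 371 under the stricter rule. The difference in cell shares ranged from -5.07 to -4.23 percentage points, the log2 ratio of UMIs per cell from 0.09 to 0.38, the genes per cell at 20000 UMIs from -20.1 to -3.25 and the mitochondrial share from 0.0716 to 0.917 percentage points. Exact tests with 4 mice cannot go below p = 0.125. Unthinned, the difference in genes per cell turned from -12.6 to 265.7 (S100a11 minus Slc7a3 type), and the S100a11 type had more UMIs per cell in 4 of 5 mice.

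Of called genes, 2 turned in direction: Dcn with DESeq2 (0.26) and Apod without the cells highest in Apoe or Dcn (0.17), an alternative chosen after seeing the data. Genes that were not called turned around 0 in log2 fold change. With means of cells Tuba1a was -0.0233, Hoxa7 -0.00461 and Rpl41 0.0218. With equal cell numbers Nefh was 0.0374 and Rpl41 0.00528, and without cells above 10% mitochondrial Rpl41 was 0.00888. With a mouse left out, Tuba1a turned to -0.0157 (mouse 2), Slc3a2 to 0.0645 (mouse 5), Nefh to 0.0643, 0.00197, 0.00536 and 0.0118 (mice 1, 2, 4 and 5) and Rpl41 to 0.0131 and 0.0258 (mice 1 and 3). Over the mice left out these genes ranged from -0.0157 to 0.109 for Tuba1a, -0.198 to 0.0645 for Slc3a2, -0.105 to 0.0643 for Nefh and -0.0382 to 0.0258 for Rpl41. The cause was not tested. Depth limits the low genes: the S100a11 type of mouse 1 held 602660 UMIs, and 9 named genes had at most 3 UMIs in 1 type.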
